A study of Mus musculus with 12 samples.

Results

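The members described here are the curated non-coding records of RefSeq, the transcript collection of NCBI, on a mouse microarray. They were chosen as all probes, outside the controls, whose accession starts with NR_, leaving out the probes of 8 genes (Neat1, Malat1, Tug1, Norad, Miat, Airn, Peg13 and Mx2). This gave 307 probes of 306 records among 37246 probes on the array, which stand for 229 named genes and 63 records without a gene name here. RNA came from C2C12 cells, an immortalised line of mouse myoblasts that stop dividing and fuse into muscle fibres when serum is lowered. Proliferating cells were grown to 80 to 90% confluence in 10% fetal bovine serum, and the other groups were cells kept in 2% horse serum for 2, 5 or 8 days, with no genetic change or drug in any group. Each of the 4 stages was measured on 3 one-colour Agilent arrays labelled with Cy3, which the labels call independent experiments. Nothing in the labels says how separate the cultures of a stage were, so the p values rest on array-to-array spread, which may be technical. A line of this kind has no blood vessels, nerves or other muscle cell types around it.

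Long non-coding RNAs (lncRNAs) are transcripts without a known protein product, and some act on the gene they lie next to or across from. Hosts of small nucleolar RNAs (snoRNAs) carry those RNAs in their introns. The snoRNAs leave the intron and guide the modification of ribosomal RNA, while the spliced host is usually short-lived. Transcribed pseudogenes are copies of coding genes that are read into RNA but are not thought to give a full protein. Further NR_ records are processed or alternative transcripts of genes that also have a coding record.

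By the gene types of the RefSeq table, 81 of the 307 probes were lncRNAs, 6 were snoRNA hosts, 112 were transcribed pseudogenes, 37 were non-coding transcripts of coding genes, 8 were structural RNAs, and 63 had an accession that the table did not hold and are named by accession alone. A probe was tested if some stage had all 3 of its arrays flagged as well above background by the scanner software. This held for 179 members (58.3%), against 61.6% of all probes. Of the members, 36 lncRNA probes, 6 host probes, 55 pseudogene probes, 34 probes of coding-gene transcripts, 4 structural RNA probes and 44 unmatched probes were tested, and the other members have no result below. 16 lncRNA and 24 pseudogene probes were well above background on none of the 12 arrays. Values are given as scaled signal, the processed signal as a percentage of that array's 75th percentile, and changes as log2 fold changes of that signal with the standard error of the fit (n = 3 arrays per stage). Signal depends on the probe, so levels of different probes are not set against each other.

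The labels were checked on markers. Differentiated muscle markers (Myog, Myh3, Ckm, Acta1 and Tnnt3) were called higher at all 3 later stages for 5 of 5 genes, and both proliferation markers (Mki67 and Top2a) were lower at days 5 and 8. Of these calls the slide block ended that of Acta1 at day 2 (adjusted p = 0.0511). The summed scaled signal of 3 adipocyte markers (Adipoq, Plin1 and Cidec) lay between 0.421 and 1.29% over the stages, and none of them was well above background on any array. Of 3 endothelial markers, Tek rose at days 2, 5 and 8 (2.54, 2.38 and 1.98), Cdh5 had no call at day 2 and fell at days 5 and 8 (-1.80 and -2.17), calls that the slide block ended (0.066 and 0.168), and Pecam1 had no call. Their summed scaled signal, most of it from the Tek probe, was 88.2, 73.7 and 55.8% at days 2, 5 and 8, against 18.8% in proliferating cells. Of 2 epithelial markers, Krt8 rose at day 2 (1.94) and fell at day 8 (-0.66, 0.11 with no call under the slide block), and Epcam was well above background on 1 array. Csf1r, the only tested macrophage marker, rose at days 5 and 8 (0.68 and 1.29). Of the osteoblast markers Bglap fell at days 5 and 8 (-1.14 and -1.05) and Sp7 had no call. Of the neural markers Snap25 fell at day 8 (-0.86) and Gfap had no call. The slide block ended each of these calls of Csf1r, Bglap and Snap25. Whether any of these markers bears on a member was not tested. The arrays lay on 3 slides. Proliferation arrays 1, 2 and 3 shared a slide with day 2 array 1, day 2 arrays 2 and 3 with day 5 arrays 1 and 2, and day 5 array 3 with the 3 day 8 arrays. Day 8 and proliferation shared no slide, so their comparison with the slide as a block in the fit (slides blocked) rests on the stages between. With that block 18, 30 and 21 of the 179 tested members were called at days 2, 5 and 8, of which 16, 29 and 18 were also called without it. Of all tested probes 15.3, 22.7 and 17.3% were called with the block at these days. The value with the block, or whether it ended the call, is given beside most results of members it touches. For the coding genes set beside members it is mostly not given, and their calls are then those of the fit without the block. A call is said to end under an alternative treatment of the data when its adjusted p no longer lies under 0.05 there, and where leaving out single arrays ended it, the adjusted p values without them stand in brackets.

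The question of each comparison with proliferation was which members had changed after 2, 5 or 8 days of differentiation. In limma's fit over all 22959 tested probes, 17 members rose and 28 fell at day 2, which is 25.1% of the 179 tested, beside a background of 30.6% of all tested probes called in that comparison. At day 5, 24 rose and 54 fell (43.6%, background 47.5%), and at day 8, 25 rose and 67 fell (51.4%, background 54.8%). Of all tested probes 18.3, 23.7 and 25.4% rose and 12.2, 23.8 and 29.4% fell at days 2, 5 and 8. The 3 comparisons share the proliferation arrays and are not independent. The median log2 fold change of the members was 0.06 at day 2, -0.18 at day 5 and -0.34 at day 8, beside 0.07, -0.02 and -0.11 over all tested probes. Across the 4 stages 111 members were called by the F test (62.0%, background 65.8%). Day 5 against day 2 gave 14 rises and 37 falls (28.5%, background 30.1%), and day 8 against day 5 gave 7 rises and 9 falls (8.94%, background 12.6%). The shares called were near the background in each comparison.

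The balance of rises and falls is given by class below, beside 25.4% of all tested probes that rose and 29.4% that fell at day 8. Among the 111 members called by the F test, the stage mean was highest in proliferating cells for 48, at day 2 for 29, at day 5 for 17 and at day 8 for 17. The same count over all tested probes is not given here. Of the 55 tested pseudogenes 27 fell and 7 rose at day 8, with a median of -0.71. Of the 34 coding-gene transcripts 4 fell and 8 rose, with a median of 0.09. The lncRNAs had 12 falls and 3 rises (median -0.35), and the snoRNA hosts 4 falls and no rise (median -0.58). With slides blocked the day 8 calls were 9 falls and 2 rises of pseudogenes, 3 falls and 0 rises of coding-gene transcripts, 1 fall and 1 rise of lncRNAs, and 2 falls and 0 rises of hosts. Of all tested probes 17.3% were called at day 8 in that fit, and 56.0% of those calls were rises. Whether the classes differed from each other was not tested. With normexp background correction, day 2 gave 26 rises and 19 falls, day 5 29 and 41, and day 8 33 and 45 (rises first). Normexp was run on the median signal, so the signal column and the background correction changed together, and their parts in this shift were not told apart. Scaling by the percentile of detected probes gave 10 rises and 36 falls at day 2.

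**Figure D1:**
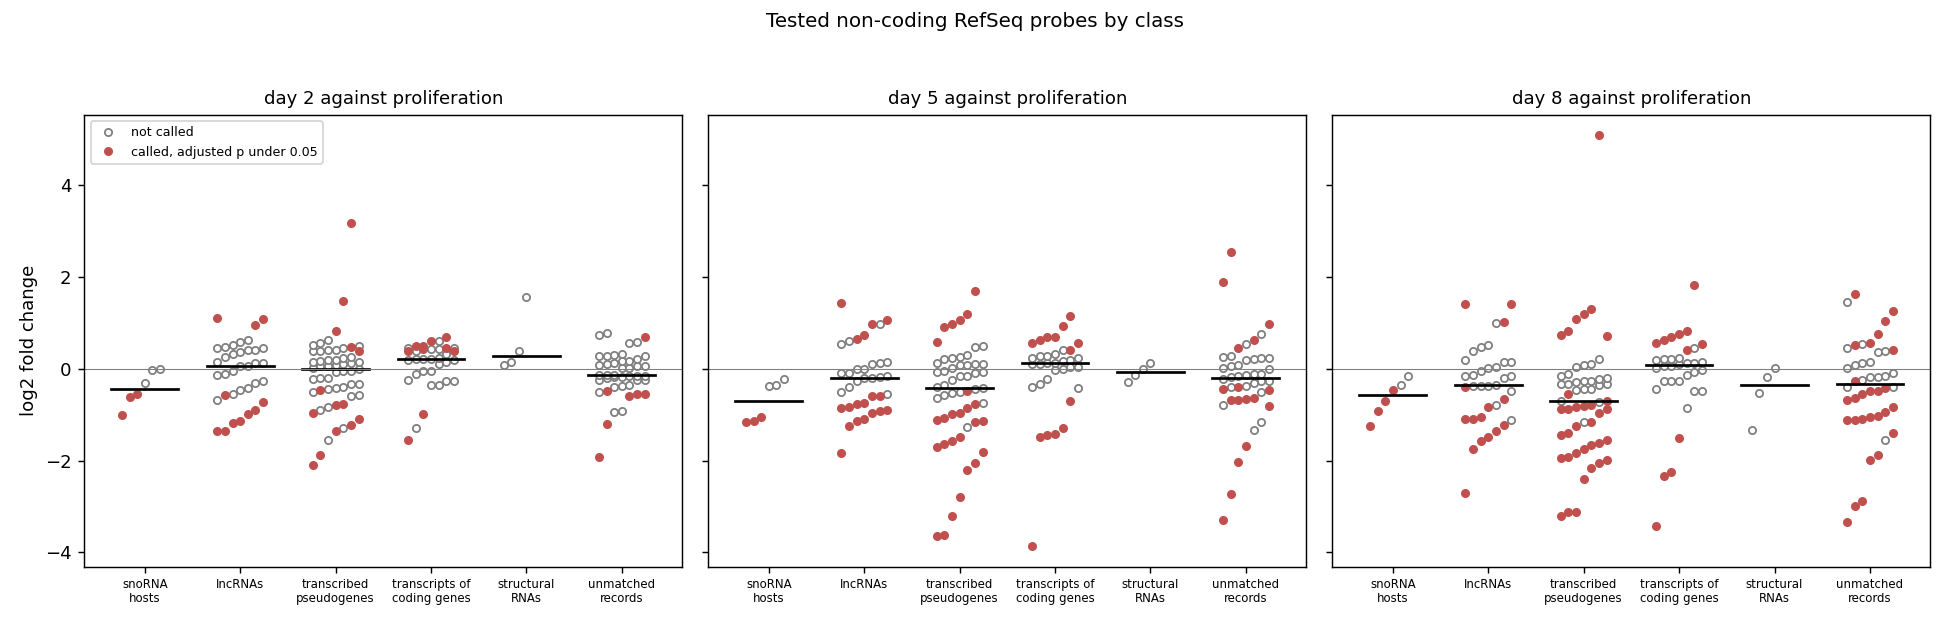
Log2 fold change of each tested member (points) at days 2, 5 and 8 against proliferation, by class on the horizontal axis, with filled red points for adjusted p under 0.05, open grey points for the others and a black bar at the class median. At day 8 the median of the pseudogenes is -0.71 and that of the coding-gene transcripts 0.09, the lowest point is Suv39h2 (-3.43) among the coding-gene transcripts, and the highest is Gm5039 among the pseudogenes.

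The 6 snoRNA hosts were all well above background on all 12 arrays. Snhg3, Snhg1 and Snhg7 fell at day 2 and stayed lower at day 5, Snhg6 and Snhg10 were lower at day 8, and Snhg20 had no call. The table places 8 snoRNA genes inside Snhg1, Snora73a and Snora73b inside Snhg3, Snora17 and Snora43 inside Snhg7, and Snord87 inside Snhg6. Snhg10 holds Scarna13, a guide RNA of Cajal bodies, beside Mir3069, and Snhg20 holds Mir6516. The arrays measured the host RNA and none of these small RNAs.

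Snhg3 (NR_003270, chromosome 4) hosts the snoRNAs that take part in the processing of 18S ribosomal RNA. Its scaled signal was 2013, 2125 and 2224% in proliferating cells, 1004, 1087 and 1100.2% at day 2, 949, 886 and 1007% at day 5, and 925, 872 and 881% at day 8. All 9 later arrays lay below the 3 proliferation arrays. The log2 fold change was -1.0 ± 0.11, adjusted p = 0.00014 at day 2, -1.16 ± 0.11, adjusted p = 8.17e-06 at day 5 and -1.25 ± 0.11, adjusted p = 4.03e-06 at day 8. With the slide as a block it was -1.08 and 0.00424, -1.33 and 0.00248 and -1.51 and 0.00579 (log2 fold change and adjusted p at days 2, 5 and 8). Within the slide that holds proliferation and day 2 arrays the difference was -1.08. All 3 calls ended without non-uniform spots (0.308, 0.322 and 0.117 at days 2, 5 and 8, as the highest adjusted p of its alternatives, with 4.7e-05, 3.23e-06 and 2.14e-06 as the lowest).

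Snhg1 (NR_002896, chromosome 19), the host of Snord22 among others, had a scaled signal of 478, 502 and 429% in proliferating cells, 286, 345 and 329% at day 2, 219, 212 and 254% at day 5, and 259, 344 and 271% at day 8. Its lowest values were at day 5, and the proliferation arrays did not overlap any later stage. The day 2 call ended with dim probes kept in, and when proliferation array 2 or day 2 array 1 was left out (0.0624 to 0.0663), with adjusted p between 0.0114 and 0.0663 in its 18 alternatives. The change was -1.04 ± 0.15, adjusted p = 0.000183 at day 5 (-1.35 and an adjusted p of 0.0072 with slides blocked) and -0.70 ± 0.15, adjusted p = 0.00235 at day 8 (-1.17 and an adjusted p of 0.0455 with slides blocked). At day 8 the call ended with normexp background correction, with adjusted p between 0.0012 and 0.0938 in its 18 alternatives. Day 5 was also lower than day 2 (-0.49 ± 0.15, adjusted p = 0.0296), a call that ended with normexp background correction and with dim probes kept in, and when day 2 arrays 2 or 3 or day 5 arrays 1 or 2 was left out (0.0827 to 0.0927), with adjusted p between 0.0185 and 0.13 in its 18 alternatives.

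Snhg7 (NR_024068, chromosome 2) had 27.9, 25.9 and 29.7% in proliferating cells, 16.5, 18.3 and 19.6% at day 2, 15, 10.3 and 13.1% at day 5, and 21.9, 22.1 and 21.8% at day 8. The lowest stage was day 5, with day 8 between day 5 and proliferation. It fell at day 2 (-0.62 ± 0.15, adjusted p = 0.00995) and day 5 (-1.13 ± 0.15, adjusted p = 9.32e-05), and with the slide block the day 5 value was -1.36 and 0.00988. The day 2 call ended with normexp background correction, with adjusted p between 0.00513 and 0.119 in its 18 alternatives. Day 8 was higher than day 5 (0.79 ± 0.15, adjusted p = 0.00855), and this ended with slides blocked, with adjusted p between 0.00649 and 0.107 in its 18 alternatives. Against proliferation, day 8 was -0.34 ± 0.15, adjusted p = 0.0697, with no call.

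Snhg6 (NR_024067, chromosome 1) was spread widely among arrays of a stage, with 217, 394 and 239% at day 8 against 419.8, 556 and 577% in proliferating cells. The change at day 8 was -0.91 ± 0.32, adjusted p = 0.0325, and the call ended with slides blocked and with dim probes kept in, and when proliferation arrays 2 or 3 or day 8 arrays 1 or 3 was left out (0.0852 to 0.113), with adjusted p between 0.0139 and 0.216 in its 18 alternatives. Snhg10 (NR_003145, chromosome 12) had 67.7, 62.8 and 69.8% at day 8, against 80.5, 94.4 and 101% in proliferating cells (-0.45 ± 0.16, adjusted p = 0.0306). Its call ended with slides blocked, with normexp background correction and with dim probes kept in, and when proliferation arrays 2 or 3 or day 8 arrays 1, 2 or 3 was left out (0.0525 to 0.0965), with adjusted p between 0.019 and 0.541 in its 18 alternatives. Snhg20 (NR_027059, chromosome 11) had log2 fold changes of -0.03 ± 0.15, adjusted p = 0.889, -0.21 ± 0.15, adjusted p = 0.292 and -0.16 ± 0.15, adjusted p = 0.416 at days 2, 5 and 8, and its stages overlapped.

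**Figure D2:**
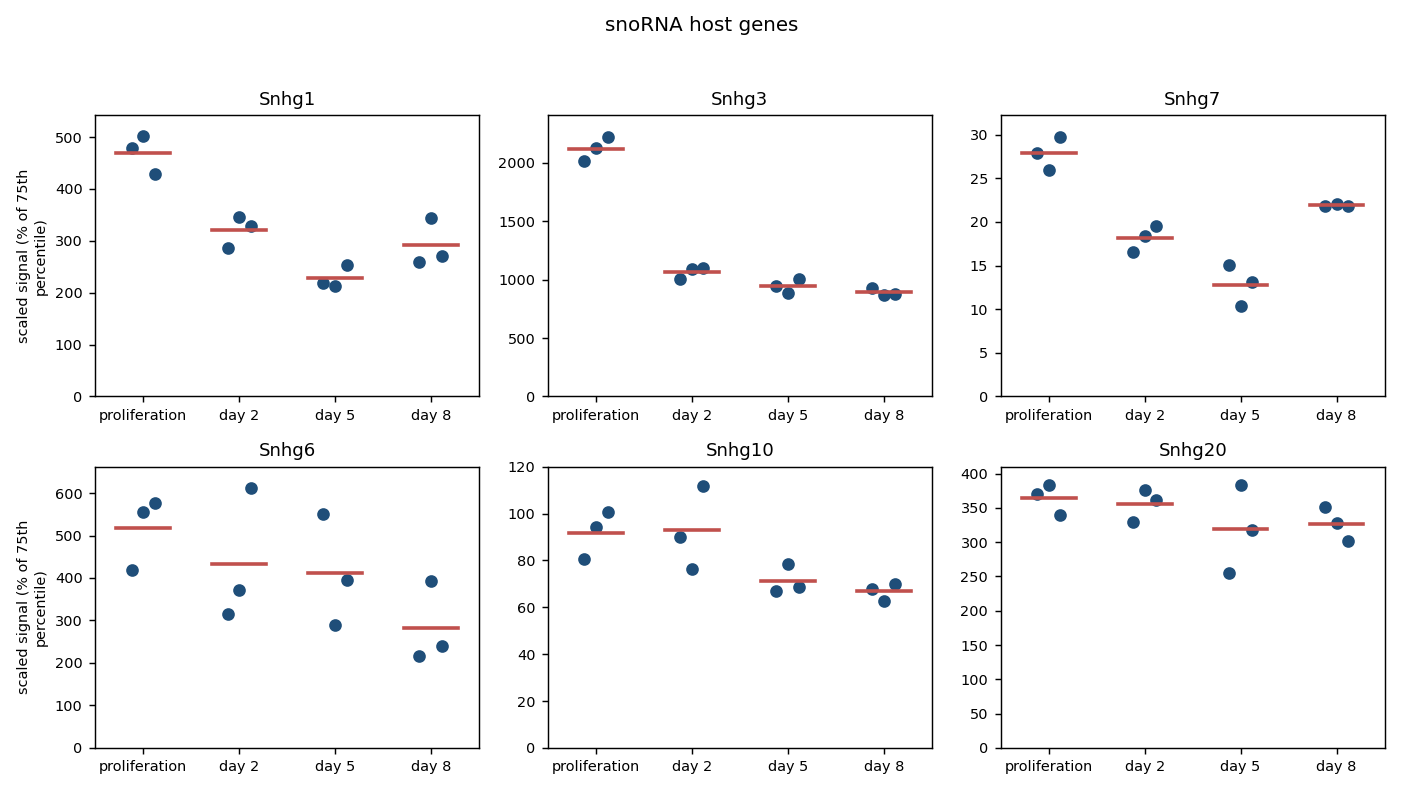
Scaled signal (percent of each array's 75th percentile, linear axis from 0) of the 6 snoRNA hosts on every array by stage, with a bar at the stage mean. Snhg3 lies at 2013 to 2224% in proliferating cells and at 872 to 1100.2% on all later arrays, and Snhg7 is lowest at day 5.

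The starts of the 3 hosts that fell at day 2 are shown because all 3 hold the letters TATAAA on either strand, which are letters of the TATA element. The stretches run from 60 bases before to 50 bases after the annotated start, are taken from RefSeq (GRCm38.p6) and have the match in capitals.
Snhg1 (chr19:8723427-8723536, plus strand): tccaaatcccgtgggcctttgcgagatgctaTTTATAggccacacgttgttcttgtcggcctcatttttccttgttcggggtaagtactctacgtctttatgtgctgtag
Snhg3 (chr4:132353637-132353746, minus strand): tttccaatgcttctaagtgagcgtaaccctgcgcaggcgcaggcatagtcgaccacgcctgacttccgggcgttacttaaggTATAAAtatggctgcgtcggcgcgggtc
Snhg7 (chr2:26640195-26640304, minus strand): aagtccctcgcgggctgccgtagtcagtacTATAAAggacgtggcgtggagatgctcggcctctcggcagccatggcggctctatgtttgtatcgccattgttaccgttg
The match began 29 bases before the start in Snhg1, where it is on the opposite strand, 30 bases before it in Snhg7 and at base 23 after it in Snhg3. Of 5 hosts with a promoter in the table (Snhg6 had none) 3 held it within the 300-base window, as did 3827 of all 27025 promoters of that length (14.2%) and 13 of the 89 member promoters (14.6%). The motif was picked with the hosts' values known, and a match is a description of the letters only.

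The genes of proteins that assemble with snoRNAs were mostly lower at days 5 and 8. Of 16 listed genes 14 were tested, and 0 rose and 4 fell at day 2, 1 rose and 12 fell at day 5, and 0 rose and 12 fell at day 8, with a median log2 fold change of -1.10 at day 8 beside -0.11 over all tested probes. Of all tested probes 12.2, 23.8 and 29.4% fell at days 2, 5 and 8. With slides blocked 2 of the 4, 6 of the 12 and 6 of the 12 falls were called again. Nop56, a core protein of box C/D particles, was at -4.77 at day 8, and Dkc1, the pseudouridine synthase of box H/ACA particles, at -1.93. Both were also called with slides blocked (-3.38, adjusted p = 0.0259, and -2.34, adjusted p = 0.0024). Nufip1, an assembly factor, rose at day 5 only (0.73, against 0.32 and no call with the slide as a block). Of 10 factors of nonsense-mediated decay, the pathway that degrades spliced hosts, 1 rose and 4 fell at day 8, beside 54.8% of all tested probes called there. With slides blocked the rise was called again and 0 of the 4 falls were. Smg6, the endonuclease of that pathway, rose at days 2, 5 and 8 (1.21, 2.35 and 2.52), and Upf3b, a factor of the exon junction, fell (-0.66, -1.21 and -0.65), with no call at day 8 under the slide block (adjusted p = 0.0689).

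Among 36 tested lncRNA probes, 3 rose and 8 fell at day 2, 5 rose and 13 fell at day 5, and 3 rose and 12 fell at day 8. These were 30.6, 50 and 41.7% of the tested lncRNA probes, beside 30.6, 47.5 and 54.8% of all tested probes. With slides blocked 5 (2 rises), 5 (2 rises) and 2 (1 rise) were called at days 2, 5 and 8. Kis2 and Gnasas1 fell at days 5 and 8, 9130024F11Rik and 1700096K18Rik rose, and Pvt1 and Xist were lowest at day 2. Gm17801 and BC006965 were also lower at day 8.

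Kis2 (NR_003188, chromosome X) had 45.2, 84.6 and 77% in proliferating cells, 109, 59.9 and 51.4% at day 2, 20.6, 17.9 and 18% at day 5, and 12, 5.7 and 15.6% at day 8. Days 5 and 8 lay below all arrays of the earlier stages. The change was -1.82 ± 0.39, adjusted p = 0.00283 at day 5 and -2.70 ± 0.39, adjusted p = 0.000177 at day 8, and day 5 was lower than day 2 by the same fit (-1.89 ± 0.39, adjusted p = 0.0038, -1.53 and an adjusted p of 0.0371 with slides blocked). Against proliferation the calls ended with the slide as a block (-0.82 and 0.435 at day 5, -1.63 and 0.235 at day 8). At day 5 the call also ended without non-uniform spots (0.0867), and adjusted p ran over 0.000632 to 0.435 at day 5 and 1.85e-05 to 0.235 at day 8 across the alternatives.

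RefSeq places 6 microRNA genes within 1000 bases of Kis2, all on its strand, in 870 bases past its end (Mir106a, Mir18b, Mir20b, Mir19b-2, Mir92-2 and Mir363), and Mir106a overlaps the end of Kis2 by 5 bases. The mature microRNAs are shown because this cluster carries microRNAs with seeds shared among themselves. The seed (bases 2 to 8) is in capitals.
mmu-miR-106a-5p (chrX:52742541-52742563, minus strand): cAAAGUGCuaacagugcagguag
mmu-miR-20b-5p (chrX:52742159-52742181, minus strand): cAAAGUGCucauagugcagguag
mmu-miR-18b-5p (chrX:52742381-52742403, minus strand): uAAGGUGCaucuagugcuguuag
mmu-miR-19b-3p (chrX:52741991-52742013, minus strand): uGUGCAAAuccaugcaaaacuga
mmu-miR-92a-3p (chrX:52741854-52741874, minus strand): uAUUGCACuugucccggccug
mmu-miR-363-3p (chrX:52741697-52741718, minus strand): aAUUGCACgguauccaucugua
The miR-106a and miR-20b arms share a seed, as do the miR-92a and miR-363 arms. Coordinates are of GRCm38.p6. None of these microRNAs was measured here.

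Gnasas1 (NR_002846, chromosome 2) is transcribed antisense to the imprinted Gnas locus. Its scaled signal was 70.7, 86 and 88.9% in proliferating cells, 58.8, 84.6 and 86.3% at day 2, 54.9, 55.4 and 38.5% at day 5, and 28.4, 23.1 and 31.7% at day 8. The day 8 arrays lay below every other array. The change was -0.74 ± 0.21, adjusted p = 0.0134 at day 5 and -1.57 ± 0.21, adjusted p = 9.45e-05 at day 8 (-1.59 and an adjusted p of 0.0179 with slides blocked). At day 8 the call ended with non-uniform spots dropped, with adjusted p between 5.13e-05 and 0.0615 in its 20 alternatives. The day 5 call ended with non-uniform spots dropped and with non-uniform spots dropped after scaling, and when day 5 array 3 was left out (0.0581), with adjusted p between 0.0074 and 0.913 in its 20 alternatives. Day 5 was lower than day 2 (-0.62 ± 0.21, adjusted p = 0.043), and that call ended with the replicate block, with dim probes kept in, with non-uniform spots dropped and with non-uniform spots dropped after scaling, and when proliferation arrays 2 or 3, day 2 arrays 2 or 3, day 5 arrays 1 or 3 or day 8 array 1 was left out (0.0525 to 0.172), with adjusted p between 0.0202 and 0.877 in its 20 alternatives. Day 8 was lower than day 5 (-0.83 ± 0.21, adjusted p = 0.0283), and that call ended with slides blocked, with dim probes kept in, with non-uniform spots dropped and with non-uniform spots dropped after scaling, and when day 5 arrays 1 or 2 or day 8 arrays 1 or 2 was left out (0.0712 to 0.104), with adjusted p between 0.0137 and 0.348 in its 20 alternatives. Gnas, the gene of the G protein alpha subunit on the other strand, was read by 6 tested probes of mRNA records. At day 8, 5 of them fell (log2 fold changes between -2.56 and -0.98), and the brightest was at -2.18 with an adjusted p of 0.0544, which missed the threshold. With slides blocked 1 of the 6 was called (-3.57, adjusted p = 0.0122) and 1 had the opposite sign (0.68). A further non-coding record of Gnas itself (NR_003258), named after its values were seen, fell at day 8 (-1.50 ± 0.49, adjusted p = 0.0236, -1.93 and an adjusted p of 0.297 with slides blocked).

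9130024F11Rik (chromosome 1), a lncRNA of unstated function, was read by 2 probes. The NR_024326 probe had 11.4, 10.8 and 13.5% in proliferating cells, 14.6, 13.1 and 11.3% at day 2, 23.3, 25.7 and 25.3% at day 5, and 33.1, 28.3 and 33.5% at day 8. Days 5 and 8 did not overlap the earlier stages. It rose by 1.06 ± 0.14, adjusted p = 0.00012 at day 5 (1.30 and an adjusted p of 0.00871 with slides blocked) and 1.41 ± 0.14, adjusted p = 1.2e-05 at day 8 (1.62 and an adjusted p of 0.0121 with slides blocked), and no alternative ended either call. The NR_024325 probe was at 0.97 at day 5 and 1.01 ± 0.12, adjusted p = 4.67e-05 at day 8 (0.93 and an adjusted p of 0.0728 with slides blocked). 1700096K18Rik (NR_027388, chromosome 5) had 16.2, 13.2 and 10.8% at day 8, against 2.48, 7.93 and 6.32% in proliferating cells (1.40 ± 0.37, adjusted p = 0.00858), and the call ended with slides blocked, with adjusted p between 0.00347 and 0.241 in its 20 alternatives.

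**Figure D3:**
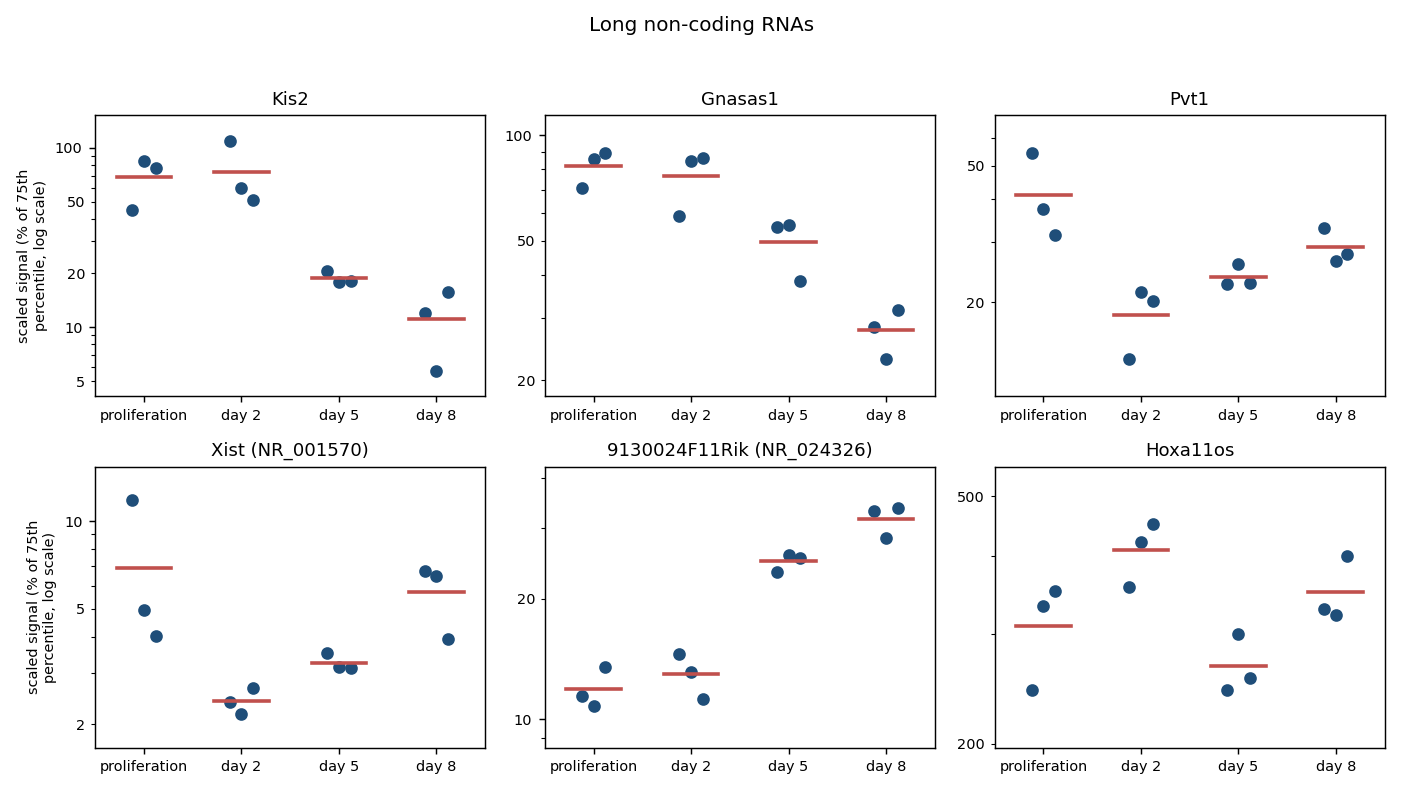
Scaled signal (percent of the 75th percentile, log axis) of 6 lncRNA probes on every array by stage, with a bar at the stage mean. Kis2 and Gnasas1 are lowest at day 8, 9130024F11Rik is higher at days 5 and 8, and Pvt1 and Xist are lowest at day 2.

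Pvt1 (NR_003368, chromosome 15), the neighbour of Myc, was chosen for description after its values were seen. It had 54.4, 37.4 and 31.4% in proliferating cells, 13.7, 21.4 and 20.1% at day 2, 22.5, 25.8 and 22.7% at day 5, and 32.8, 26.3 and 27.6% at day 8. Day 2 was the lowest stage and did not overlap proliferation. The fall at day 2 was -1.15 ± 0.22, adjusted p = 0.00376 (-1.55 and an adjusted p of 0.00944 with slides blocked), and within the slide shared by both stages it was -1.55. The day 2 call ended with non-uniform spots dropped, with adjusted p between 0.00302 and 0.142 in its 20 alternatives. At day 5 it was -0.76 ± 0.22, adjusted p = 0.0167, which ended with non-uniform spots dropped, and when proliferation array 1 or day 5 array 3 was left out (0.0503 to 0.0616), with adjusted p between 0.00859 and 0.574 in its 20 alternatives.

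Xist (chromosome X), the RNA that coats the inactive X chromosome, was read by 2 probes, and Tsix, its antisense partner, was well above background on no array. The NR_001570 probe had 11.8, 4.95 and 4.03% in proliferating cells, 2.39, 2.17 and 2.67% at day 2, 3.51, 3.15 and 3.12% at day 5, and 6.75, 6.47 and 3.93% at day 8. Proliferation array 1 stood above the other arrays of its stage. The change at day 2 was -1.36 ± 0.35, adjusted p = 0.0139, and the call ended with slides blocked, with normexp background correction and with non-uniform spots dropped, with adjusted p between 0.00667 and 0.111 in its 20 alternatives. The NR_001463 probe was at -1.35 ± 0.39, adjusted p = 0.0244 at day 2, and that call ended with slides blocked, with normexp background correction, with dim probes kept in and with non-uniform spots dropped, and when proliferation array 1 or day 2 arrays 1 or 3 was left out (0.0653 to 0.087), with adjusted p between 0.00933 and 0.41 in its 20 alternatives. At day 8 neither probe was called (-0.15 and -0.37). These signals lie near background, where the median of the negative probes was 6.25, 5.39 and 2.42 scanner units on proliferation arrays 1, 2 and 3 and 1.39 to 3.53 on later arrays. The part of that difference in falls of dim probes was not tested.

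Gt(ROSA)26Sor (chromosome 6), the locus widely used for transgenes and also chosen after its values were seen, was read by 3 probes that disagreed. The NR_027008 probe had 34.3, 28.8 and 37.5% at day 2, against 74, 87.7 and 67.6% in proliferating cells (-1.19 ± 0.19, adjusted p = 0.00131, -1.15 and an adjusted p of 0.0321 with slides blocked). The NR_027009 and NR_027010 probes were at -0.46 and 0.14, with no call. Firre (NR_015505, chromosome X), a nuclear lncRNA also chosen after its values were seen, had no call at any stage, at 0.52 ± 0.25, adjusted p = 0.106 at day 8.

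7 lncRNAs named as antisense or opposite-strand to a gene were tested, Gnasas1 among them, and 6 of them could be set beside a tested probe of that gene. The values of those genes in the paragraphs on antisense RNAs are of the fit without the slide block, so their calls are not held to the same check as those of the lncRNAs. Probe sequences were not used here, so the strand each probe reads was not checked. Hoxa11os (NR_015348, chromosome 6), antisense to the limb homeobox gene Hoxa11, had 244, 333 and 352% in proliferating cells, 357, 422 and 450.3% at day 2, 244, 301 and 255% at day 5, and 329, 321 and 400.1% at day 8. Day 2 lay above the arrays of proliferation and day 5, while days 5 and 8 each overlapped proliferation. The called difference was the step between day 2 and day 5 (-0.62 ± 0.17, adjusted p = 0.0196), and that call ended with slides blocked, with normexp background correction and with dim probes kept in, and when day 2 arrays 2 or 3 or day 5 arrays 1 or 3 was left out (0.0561 to 0.0723), with adjusted p between 0.00953 and 0.103 in its 18 alternatives. Hoxa11 itself fell at days 2, 5 and 8 (-1.29, -1.28 and -1.14), while Hoxa11os was at 0.42, -0.20 and 0.19, with no call.

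Has2os (NR_002874, chromosome 15), antisense to the hyaluronan synthase gene Has2, had 2.12, 1.07 and 2.28% at day 2, against 0.55, 0.951 and 1.01% in proliferating cells, where 1 of 3 arrays was well above background. It rose at day 2 (1.10 ± 0.31, adjusted p = 0.0227), and the call ended with slides blocked and with dim probes kept in, and when proliferation array 1 or day 2 arrays 1 or 3 was left out (0.0818 to 0.0864), with adjusted p between 0.00443 and 0.0864 in its 20 alternatives. Has2 fell at day 2 (-0.78, adjusted p = 0.00533). Abhd11os (NR_026688, chromosome 5) was also higher at day 2, with 4.08, 4.04 and 2.38% against 1.55, 1.53 and 1.76% in proliferating cells (1.08 ± 0.24, adjusted p = 0.00709, 1.34 and an adjusted p of 0.0157 with slides blocked), and no alternative ended that call. Abhd11 was at 0.03 at day 2, with no call, and fell at day 8 (-1.10, adjusted p = 0.000368), where Abhd11os was at -0.04.

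Dlx1as (NR_002854, chromosome 2), antisense to the homeobox gene Dlx1, was lower at day 5 than at day 2, with 4.27, 4.43 and 6.05% against 11.7, 8.98 and 7.87% (-0.95 ± 0.19, adjusted p = 0.00255, -0.95 and an adjusted p of 0.00338 with slides blocked). That call ended with non-uniform spots dropped, with adjusted p between 0.00208 and 0.137 in its 20 alternatives. Against proliferation Dlx1as was called lower at day 5 only (-0.59). That call ended with slides blocked (-0.27, adjusted p = 0.498) and in further alternatives, and its sign turned with non-uniform spots dropped (0.21). Dlx1 fell at all 3 later stages against proliferation (-1.22, -1.57 and -1.57). Vax2os (NR_002871, chromosome 6) was at -1.05 ± 0.35, adjusted p = 0.0243 at day 8, a call that ended with slides blocked, with normexp background correction and with non-uniform spots dropped, and when proliferation arrays 1 or 2 or day 8 arrays 1 or 2 was left out (0.054 to 0.0941), with adjusted p between 0.0142 and 0.495 in its 20 alternatives, and Vax2 fell at day 8 as well (-0.96). G6bos (NR_001462, chromosome 17) was at 0.65 ± 0.22, adjusted p = 0.0326 at day 5, and its call ended with slides blocked, with the percentile over detected probes and with dim probes kept in, and when proliferation arrays 1 or 3 or day 5 arrays 1 or 2 was left out (0.0828 to 0.12), with adjusted p between 0.00282 and 0.12 in its 20 alternatives.

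Several named lncRNAs, mostly of imprinted domains, did not reach the signal needed for a test. The records without a gene name here could not be searched for further lncRNAs of this kind. Meg3, Kcnq1ot1 and Ipw were well above background on 0 of 12 arrays. Dnm3os, which holds Mir199a-2 and Mir214, was so on 1 day 8 array, and Igf2os on 1 array at day 2 and 2 at day 5. For comparison, Igf2 rose by 5.08 at day 5. Nctc1 (NR_002452, chromosome 7), transcribed in the Igf2 and H19 domain, had 13.2, 14.9 and 15.6% at day 8, against 7.86, 8.93 and 5.48% in proliferating cells, without overlap, and was at 1.0 ± 0.42, adjusted p = 0.0633, which missed the threshold.

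3 more lncRNAs fell at day 8. Gm17801 (NR_027452, chromosome 17) had 2.18, 1.31 and 1.93% at day 8, against 8.44, 5.15 and 4.75% in proliferating cells (-1.74 ± 0.28, adjusted p = 0.000345), and the call ended with slides blocked and with normexp background correction, with adjusted p between 0.000325 and 0.131 in its 20 alternatives. It was lower at day 5 too (-1.10 ± 0.28, adjusted p = 0.00719), and that call ended with slides blocked, with normexp background correction and with non-uniform spots dropped, with adjusted p between 0.00508 and 0.521 in its 20 alternatives. BC006965 (NR_024085, chromosome 11) was at -1.49 ± 0.43, adjusted p = 0.0122 at day 8 and ended with slides blocked, with normexp background correction and with non-uniform spots dropped, with adjusted p between 0.000721 and 0.682 in its 20 alternatives. On day 5 array 3, which lay on the slide of the day 8 arrays, BC006965 had 4.79%, against 15.5 and 16.7% on day 5 arrays 1 and 2. BC018473 (NR_003364, chromosome 11) was at -1.22 ± 0.30, adjusted p = 0.00557 and ended with slides blocked, with normexp background correction and with non-uniform spots dropped, with adjusted p between 0.00287 and 0.829 in its 20 alternatives, with the opposite sign under normexp (0.05).

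Transcribed pseudogenes made up the largest class. Of 55 tested, 5 rose and 9 fell at day 2, 6 rose and 20 fell at day 5, and 7 rose and 27 fell at day 8, which is 25.5, 47.3 and 61.8% called, beside 30.6, 47.5 and 54.8% of all tested probes. With the slide as a block 5, 12 and 11 were called at days 2, 5 and 8, of which 5, 11 and 10 were called without it. A pseudogene can share sequence with its parent gene and with other copies, and the array's signal may then hold RNA of several of them, which was not tested.

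2700099C18Rik (NR_024720, chromosome 17) fell at all 3 later stages. Its scaled signal was 187, 141 and 124% in proliferating cells, 88.1, 85.6 and 89.6% at day 2, 19.7, 23.5 and 21.6% at day 5, and 13.6, 19 and 19.6% at day 8. No stage overlapped the next. The log2 fold change was -2.78 ± 0.18, adjusted p = 6.05e-07 at day 5 and -3.11 ± 0.18, adjusted p = 1.96e-07 at day 8, and with the slide as a block the values were -2.78 and 0.000979 at day 5 and -3.11 and 0.00241 at day 8. No alternative ended these calls. The day 2 call (-0.76 ± 0.18, adjusted p = 0.011) ended with slides blocked, with adjusted p between 0.00421 and 0.103 in its 18 alternatives.

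Gm10052 (NR_002885, chromosome 9) had 1145, 1278 and 1141% in proliferating cells, 699.9, 198 and 248% at day 2, 72.4, 110.5 and 113% at day 5, and 118, 154 and 139% at day 8. All later arrays lay below proliferation, and day 2 array 1, on the slide of the proliferation arrays, lay above day 2 arrays 2 and 3. The change was -3.61 ± 0.39, adjusted p = 2.19e-05 at day 5 (-2.07 and an adjusted p of 0.00329 with slides blocked) and -3.12 ± 0.39, adjusted p = 5.64e-05 at day 8 (-1.80 and an adjusted p of 0.0236 with slides blocked). Within the slide shared by day 2 and day 5, the difference of day 5 from day 2 was -1.31, and the day 2 fall (-1.87 ± 0.39, adjusted p = 0.00504) ended with slides blocked, with adjusted p between 0.000223 and 0.0863 in its 18 alternatives. Gm10653 (NR_003965, chromosome 9) showed the same split at day 2, with 282, 45.4 and 115% on arrays 1, 2 and 3. It was at -3.20 ± 0.53, adjusted p = 0.000523 at day 5 and -3.22 ± 0.53, adjusted p = 0.000434 at day 8, and both calls ended with the slide as a block (-1.31 and 0.219, and -1.47 and 0.298). Over the alternatives adjusted p ran over 2.55e-05 to 0.219 at day 5 and 1.53e-05 to 0.298 at day 8. Among the 54 members that fell at day 5, the highest of the 3 day 2 arrays was array 1 for 23, array 2 for 16 and array 3 for 15.

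Gm5039 (NR_003647, chromosome 12) had a higher log2 fold change at day 8 than any other tested member. It had 0.313, 0.288 and 0.436% in proliferating cells, 0.43, 0.102 and 0.313% at day 2, 0.945, 1.09 and 1.33% at day 5, and 13.9, 9.67 and 11.5% at day 8. It was well above background on 0 of 6 arrays at proliferation and day 2 and on all 6 arrays at days 5 and 8, so its folds are bounds. Day 8 was at least 13.0-fold higher than proliferation (adjusted p = 3.11e-06) and day 5 at least 1.25-fold higher (adjusted p = 0.00744). For such bounds the dimmer stage was given, on each array, the lowest signal of any probe well above background or the probe's own signal, whichever was higher, on normalized log2 values. The adjusted p beside a bound, here and below, is that of the fit on the signals as measured. It does not test the bound itself. Day 8 was higher than day 5 by 3.38 ± 0.43, adjusted p = 0.00152 (3.12 and an adjusted p of 0.0172 with slides blocked), and no alternative ended the calls of day 5 or day 8 against proliferation or of day 8 against day 5.

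H2-K2 (NR_004446, chromosome 17), of the class I histocompatibility region, peaked at day 2. It had 0.313, 0.73 and 0.637% in proliferating cells, 5.55, 4.78 and 4.02% at day 2, 0.866, 1.06 and 1.44% at day 5, and 1.33, 1.24 and 1.35% at day 8. The proliferation arrays lay near background, with 1 of 3 well above it. After the rise at day 2, which the slide block kept (3.40 and an adjusted p of 0.00159 with slides blocked), day 5 was lower than day 2, at -2.11 ± 0.30, adjusted p = 0.000289 (-2.19 and an adjusted p of 0.00184 with slides blocked). Days 5 and 8 were still called higher than proliferation. The slide block ended both of those calls (1.21, adjusted p = 0.138 at day 5, and 1.06, adjusted p = 0.324 at day 8). Macroh2a3 (NR_003523, chromosome 15), named for the macroH2A histone family, also peaked at day 2, with 145, 257 and 326% in proliferating cells, 550.2, 638 and 744% at day 2, 207, 357 and 206% at day 5, and 129, 230.5 and 291% at day 8. Day 2 overlapped no other stage. It rose by 1.48 ± 0.36, adjusted p = 0.0116 at day 2, and the call ended with slides blocked, with adjusted p between 0.00376 and 0.137 in its 20 alternatives.

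**Figure D4:**
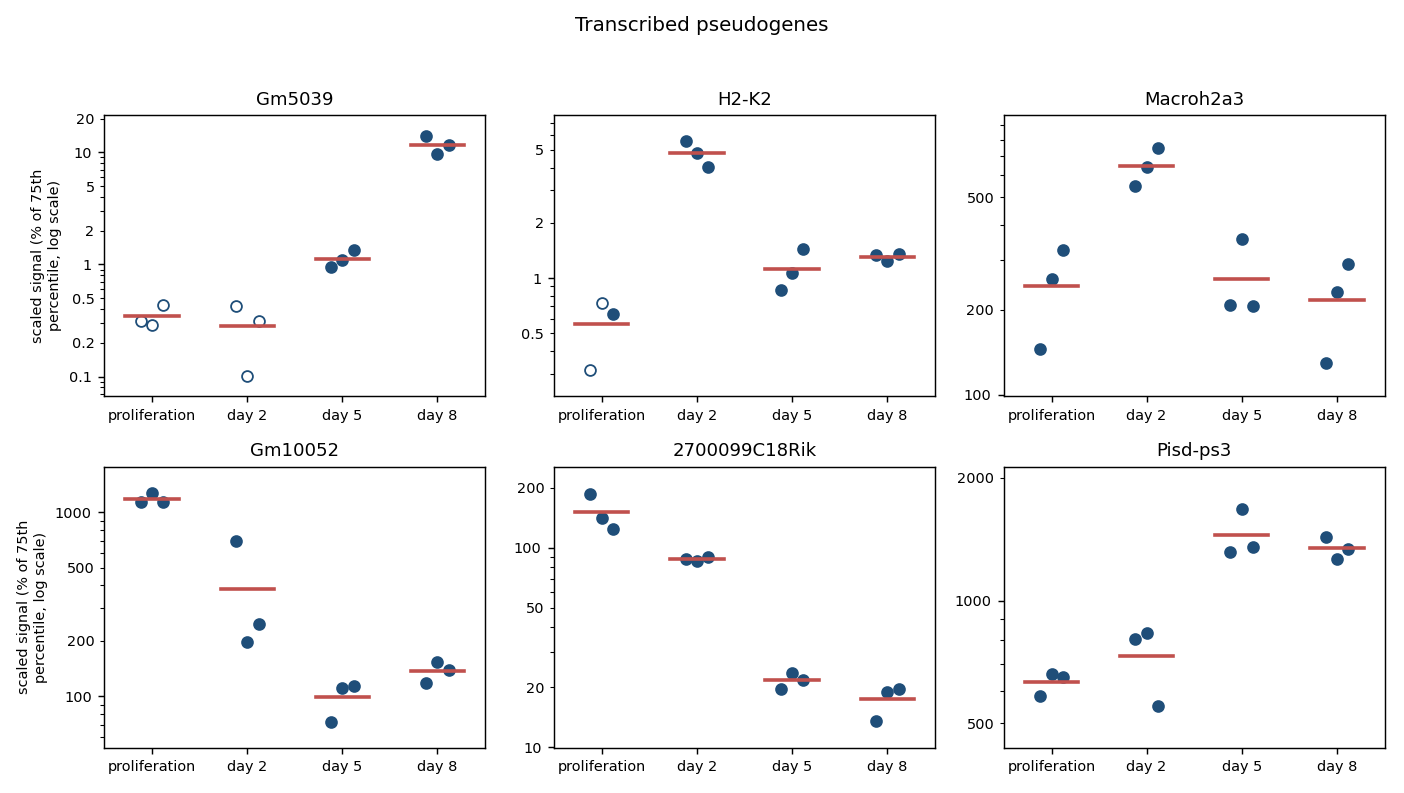
Scaled signal (percent of the 75th percentile, log axis) of 6 transcribed pseudogenes on every array by stage, with open points where the probe was not well above background and a bar at the stage mean. Gm5039 is highest at day 8, H2-K2 and Macroh2a3 peak at day 2, Gm10052 and 2700099C18Rik are lower at days 5 and 8, and Pisd-ps3 is higher at days 5 and 8.

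Where the name gave the parent, 12 pseudogene probes of 10 parent genes could be set beside a tested probe of the parent. At day 5 both rose in 3 pairs, both fell in 3 and none moved in opposite directions. The 3 pairs that rose are the Pisd pseudogenes, all set beside the same 1 probe of Pisd, so they hold 1 parent measurement. At day 8 both fell in 3, the pseudogene alone was called in 5, the parent alone in 3, and none were opposite. The same 3 Pisd pairs are among those 5. Pairs named below were chosen after their values were seen. The values of the parent genes are of the fit without the slide block, so a pseudogene whose call the block ended is not set against a parent checked in that way.

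All 3 pseudogenes of Pisd, the gene of mitochondrial phosphatidylserine decarboxylase, were called higher at days 5 and 8, and the slide block ended calls of 2 of them. Pisd-ps3 (NR_003518) had 585, 662 and 651% in proliferating cells, 806, 831 and 553% at day 2, 1317, 1676 and 1349% at day 5, and 1433, 1263 and 1337% at day 8. Days 5 and 8 lay above all earlier arrays. It rose by 1.19 ± 0.17, adjusted p = 0.000204 at day 5 (1.49 and an adjusted p of 0.0118 with slides blocked) and 1.09 ± 0.17, adjusted p = 0.000327 at day 8 (1.48 and an adjusted p of 0.0392 with slides blocked), and no alternative ended either call. Pisd-ps1 (NR_003517, chromosome 11) rose by 0.92 ± 0.15, adjusted p = 0.000467 at day 5 (1.10 and an adjusted p of 0.0286 with slides blocked) and 0.82 ± 0.15, adjusted p = 0.000917 at day 8, and the day 8 call ended with slides blocked, with adjusted p between 0.000771 and 0.0866 in its 18 alternatives. Pisd-ps2 (NR_003519, chromosome 17) was at 0.97 ± 0.31, adjusted p = 0.0246 at day 5, a call that ended with slides blocked, with normexp background correction and with dim probes kept in, and when proliferation array 1 or day 5 arrays 2 or 3 was left out (0.0506 to 0.0964), with adjusted p between 0.0131 and 0.152 in its 18 alternatives. At day 8 it was at 1.19 ± 0.31, adjusted p = 0.00778, and that call ended with slides blocked, with adjusted p between 0.00396 and 0.185 in its 18 alternatives. The probe of Pisd itself was called at day 5 (0.91, adjusted p = 0.0383) and not at day 8 (0.57, adjusted p = 0.157). The 3 copies may share sequence and are not independent.

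Gpr137b-ps (NR_003568, chromosome 13) fell together with Gpr137b, the gene of a lysosomal membrane protein. It had 144, 139 and 143% at day 8, against 490.0, 367 and 458% in proliferating cells (-1.62 ± 0.15, adjusted p = 5.77e-06, -1.25 and an adjusted p of 0.0335 with slides blocked), and Gpr137b was at -0.91 (adjusted p = 0.00115). Ppp1r2-ps3 (NR_003650, chromosome 19) fell without a call of Ppp1r2, an inhibitor of protein phosphatase 1. The pseudogene had 80.5, 152 and 129.8% at day 8, against 297, 302 and 324% in proliferating cells (-1.40 ± 0.23, adjusted p = 0.000451), and the parent was at -0.04 (adjusted p = 0.844). The Ppp1r2-ps3 call ended with slides blocked, with adjusted p between 0.000352 and 0.266 in its 18 alternatives. Pdxk-ps (NR_027316, chromosome 17) was at -0.86 ± 0.23, adjusted p = 0.00817 at day 8, while Pdxk, the gene of pyridoxal kinase, was at 0.15 (adjusted p = 0.317), and the pseudogene's call ended with slides blocked and with non-uniform spots dropped, with adjusted p between 0.00415 and 0.679 in its 20 alternatives. Selenok-ps1 (NR_004857, chromosome 11) had no call at day 8 (0.09), while Selenok, a selenoprotein gene, rose (0.87, adjusted p = 0.000335). The difference between a pseudogene and its parent was not tested in any pair.

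Apoo-ps (NR_004438, chromosome 13) was at -1.95 ± 0.58, adjusted p = 0.0145 at day 8, beside Apoo, a gene of the mitochondrial inner membrane, at -0.52 (adjusted p = 0.0181). The day 2 arrays of Apoo-ps were 192, 40.8 and 49%, with array 1 on the slide of the proliferation arrays. Its day 8 call ended with slides blocked, and when proliferation array 3 was left out (0.0541), with adjusted p between 0.0031 and 0.332 in its 18 alternatives. Npm3-ps1 (NR_002702, chromosome 6) and Npm3, a nucleoplasmin gene, both fell at day 8 (-0.97 and -1.45), and the pseudogene's call ended with slides blocked and with dim probes kept in, and when proliferation arrays 1, 2 or 3 or day 8 arrays 1 or 2 was left out (0.0567 to 0.115), with adjusted p between 8.91e-05 and 0.352 in its 18 alternatives.

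Sprr2g (NR_003548, chromosome 3), of a family of small proline-rich proteins, had 2.03, 2.08 and 1.83% in proliferating cells and was well above background on none of the 6 arrays at days 5 and 8. It was at least 3.51-fold lower at day 5 (adjusted p = 4.08e-05) and at least 3.35-fold lower at day 8 (adjusted p = 0.000691). Normexp ended both calls (0.312 and 0.688, with 1.85e-05 and 0.000242 as the lowest over the alternatives) and gave the opposite sign at day 8 (0.08). 1700123L14Rik (NR_003643, chromosome 6) was well above background on 0 of 3 arrays at day 8 and was at least 1.68-fold lower there than at day 5 (adjusted p = 0.00403), which ended with normexp background correction, with adjusted p between 0.00503 and 0.835 in its 20 alternatives. 1700049L16Rik (NR_003644, chromosome 10) fell at day 5 (-2.20 ± 0.38, adjusted p = 0.000736), a call that ended with slides blocked, with adjusted p between 0.000423 and 0.135 in its 20 alternatives. 1700018B24Rik (NR_003617, chromosome 3), well above background on 2 of 3 arrays in proliferating cells and 0 of 3 at day 8, was at least 1.94-fold lower at day 8 (adjusted p = 0.0422). That call ended with slides blocked, with normexp background correction, with quantile normalization, with dim probes kept in and with non-uniform spots dropped, and when proliferation array 1, day 2 arrays 1, 2 or 3 or day 8 arrays 2 or 3 was left out (0.0539 to 0.158), with adjusted p between 0.0139 and 0.887 in its 20 alternatives.

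8 tested pseudogenes had a mean scaled signal above 10000% in proliferating cells (Gm12070, Gm15772, Gm5069, Gm5523, Gm6498, Gm6981, Gm8580 and Ubb-ps). By limma 0 of them were called at day 2 and 0 at day 5, with 2 under an unadjusted p of 0.05 each time. At day 8, 2 fell, which were Gm6498 (-0.78 ± 0.22, adjusted p = 0.0121, -1.17 and an adjusted p of 0.172 with slides blocked) and Gm8580 (-0.71 ± 0.27, adjusted p = 0.0462, -1.57 and an adjusted p of 0.0379 with slides blocked), named after their values were seen.

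The 34 tested non-coding transcripts of coding genes had 8 rises and 2 falls at day 2, 8 and 6 at day 5, and 8 and 4 at day 8, which is 29.4, 41.2 and 35.3% called, beside 30.6, 47.5 and 54.8% of all tested probes. With slides blocked there were 0 rises and 2 falls at day 2, 1 and 3 at day 5, and 0 and 3 at day 8. For 32 probes of 27 genes a probe of the gene's mRNA record was tested too, and where a gene had several the brightest was taken. At day 8 both rose in 4 pairs and both fell in 3, with 0 pairs in opposite directions. The non-coding record was called without the brightest mRNA probe in 4 pairs, and the reverse held in 4. Those first 4 were of Chpt1, Gnas and Rnf44, with Rnf44 counted more than once. Another mRNA probe of each of these genes was called in the same direction (for example 0.72 for Chpt1, -1.53 for Gnas and 0.66 for Rnf44). They are therefore not genes whose non-coding record changed alone. The pairs may share exons, and since probe sequences were not used here, whether the probes tell the transcripts apart was not tested. Values of mRNA probes are of the fit without the slide block unless the block is named.

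Suv39h2 (NR_027509, chromosome 2), whose gene encodes a methyltransferase of histone H3 lysine 9, had the lowest log2 fold changes of this class at days 5 and 8. It had 12.1, 7.69 and 6.19% in proliferating cells, 1.87, 3.6 and 3.43% at day 2, 0.57, 0.405 and 0.812% at day 5, and 1.09, 0.802 and 0.521% at day 8. Each later stage lay below proliferation, and 1 of 3 arrays at day 5 and 2 of 3 at day 8 were well above background. The change was -1.55 ± 0.38, adjusted p = 0.0111 at day 2 (-2.15 and an adjusted p of 0.0139 with slides blocked), -3.86 ± 0.38, adjusted p = 1.06e-05 at day 5 (-5.02 and an adjusted p of 0.000441 with slides blocked) and -3.43 ± 0.38, adjusted p = 2.23e-05 at day 8 (-5.10 and an adjusted p of 0.00193 with slides blocked). At day 2 the call ended with normexp background correction and with non-uniform spots dropped, with adjusted p between 0.00988 and 0.0633 in its 20 alternatives. The mRNA probe of Suv39h2 fell likewise (-1.40, -3.06 and -3.25 at days 2, 5 and 8).

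Part of its promoter is shown because it holds the letters GGCGGGAA, a form of the site bound by E2F factors of the cell cycle, which are in capitals on the opposite strand. The stretch runs from 170 to 60 bases before the start (RefSeq, GRCm38.p6).
Suv39h2 (chr2:3475047-3475156, minus strand): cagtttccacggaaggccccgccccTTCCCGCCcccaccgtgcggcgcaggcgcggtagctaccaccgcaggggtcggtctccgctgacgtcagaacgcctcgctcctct
The match begins 145 bases before the annotated start. On either strand these letters stand in 606 of 27025 promoters (2.24%) and in 6 of the 89 member promoters (6.74%), those of 1700008J07Rik, 9230116N13Rik, Adarb1, Gm17769, Suv39h2 and Wt1os. The motif was picked with the values known, and nothing here measured binding.

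Nemp2 (NR_024590, chromosome 1), of a nuclear envelope protein gene, had 47.7, 46.3 and 35.1% in proliferating cells, 36, 31.8 and 39.7% at day 2, 19.2, 14.3 and 13.1% at day 5, and 8.53, 8.41 and 8.24% at day 8. Every day 5 and day 8 array lay below all earlier ones, and day 8 below day 5. The fall was -1.48 ± 0.18, adjusted p = 4.78e-05 at day 5 (-1.34 and an adjusted p of 0.0184 with slides blocked) and -2.34 ± 0.18, adjusted p = 1.18e-06 at day 8 (-1.98 and an adjusted p of 0.0117 with slides blocked), and no alternative ended either call. The mRNA probe of Nemp2 was at -1.23 and -2.28. Prmt6 (NR_024139, chromosome 3), of an arginine methyltransferase gene and chosen after its values were seen, had 901, 1116 and 1476% in proliferating cells, 1518, 1093 and 827% at day 2, 408, 397 and 469% at day 5, and 272, 136 and 373% at day 8. It was at -2.25 ± 0.35, adjusted p = 0.000275 at day 8, while the mRNA probe of Prmt6 was at -0.54 (adjusted p = 0.00466). The Prmt6 call ended with slides blocked, with adjusted p between 9.44e-05 and 0.166 in its 18 alternatives, and the difference between the 2 probes was not tested.

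Zc3h7a (NR_027502, chromosome 16), of a zinc finger gene, had 152, 197 and 188% in proliferating cells, 80.9, 99.2 and 89% at day 2, 52.7, 51.3 and 102% at day 5, and 128, 141 and 124% at day 8. The lowest stage was day 5, where array 3, on the slide of the day 8 arrays, lay above arrays 1 and 2. It fell at day 2 (-0.99 ± 0.24, adjusted p = 0.0107, -1.13 and an adjusted p of 0.00757 with slides blocked) and day 5 (-1.45 ± 0.24, adjusted p = 0.0005, -1.99 and an adjusted p of 0.000918 with slides blocked). The rise of day 8 over day 5 (1.01 ± 0.24, adjusted p = 0.0231) ended with slides blocked, with normexp background correction and with dim probes kept in, and when day 5 arrays 1 or 2 or day 8 arrays 1, 2 or 3 was left out (0.0571 to 0.0919), with adjusted p between 0.00165 and 0.346 in its 18 alternatives. The mRNA probe fell at days 2 and 5 too (-0.56 and -1.11).

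Several members of this class rose. Sec16b (NR_027641, chromosome 1), of a gene for export sites of the endoplasmic reticulum, had 484, 463 and 437% at day 8, against 281, 232 and 264% in proliferating cells (0.83 ± 0.13, adjusted p = 0.000342), with its 2 mRNA probes at 0.83 and 0.80. The call of the non-coding record ended with slides blocked, with adjusted p between 0.000145 and 0.187 in its 18 alternatives. The slide block also ended the calls of the 2 mRNA probes (0.0803 and 0.314). Both probes of Adarb1 (chromosome 10), the gene of an RNA editing enzyme, rose at day 8 (0.56 and 0.75), as did both mRNA probes (0.74 and 1.03). The slide block ended the calls of the non-coding records (0.192 and 0.129) and of the mRNA probes (0.281 and 0.134). Both probes of Rnf44 (chromosome 13) rose at day 8 (0.62 and 0.55), and the slide block ended these too (0.193 and 0.15). Of 4 tested mRNA probes of Rnf44, 1 rose at day 8 (0.66, adjusted p = 0.00938, and 0.119 under the slide block) and 3 had no call (-0.37, -0.13 and -0.18). These members were chosen after their values were seen.

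**Figure D5:**
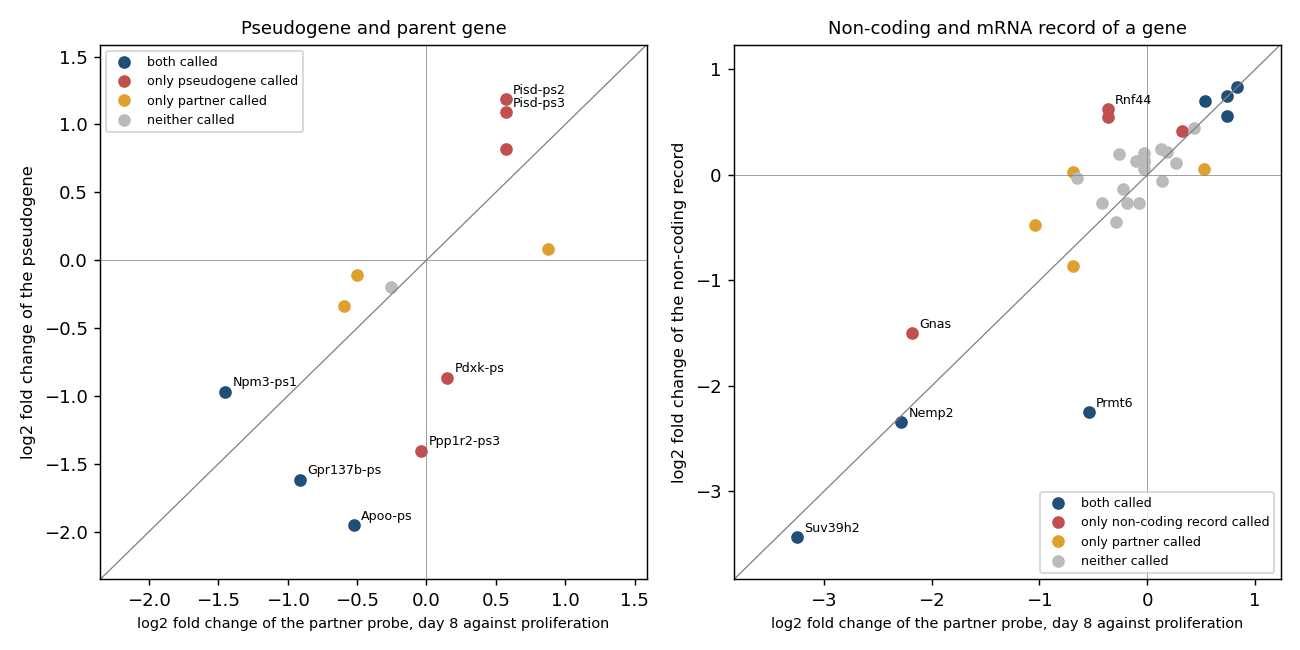
Log2 fold change at day 8 against proliferation of each pseudogene (left) or non-coding record (right), on the vertical axis, and of the brightest tested probe of its parent gene or mRNA record, on the horizontal axis, with the line of equal change. Suv39h2 and Nemp2 lie near the line, Prmt6 lies below it (-2.25 against -0.54), and no pair called on both probes lies on opposite sides of 0.

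Trpt1 (NR_027351, chromosome 19), of a tRNA phosphotransferase gene, was higher at day 5, with 137, 73.2 and 102% against 40.5, 45.6 and 51.1% in proliferating cells (1.15 ± 0.20, adjusted p = 0.000779), and the call ended with slides blocked, with adjusted p between 0.000139 and 0.0616 in its 18 alternatives. Asb7 (NR_003961, chromosome 7), of a ubiquitin ligase adaptor gene, was at 0.70 ± 0.21, adjusted p = 0.0151 at day 8, with the mRNA probe at 0.53, and its call ended with slides blocked, and when proliferation array 3 or day 8 array 3 was left out (0.0501 to 0.0581), with adjusted p between 0.00604 and 0.325 in its 20 alternatives. Trpt1 and Asb7 were chosen after their values were seen. Vmn2r29 (NR_003555, chromosome 7), of a vomeronasal receptor gene, was well above background at day 8 on 3 of 3 arrays and in proliferating cells on none, with 1.07, 1.04 and 0.742% at day 8. It was at least 1.06-fold higher at day 8. The fit on the signals as measured, mostly below background in proliferating cells, gave 1.83 (adjusted p = 0.00206), which does not test that bound. That call ended with slides blocked, with adjusted p between 5.44e-05 and 0.328 in its 20 alternatives.

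Of the 4 tested structural RNAs, 0 were called in any comparison by limma, and 0 had an unadjusted p under 0.05 between any pair of stages compared. With the slide as a block 1 was called, Rnu1b2 (NR_024200, chromosome 3), a U1 spliceosomal RNA gene, which was at -1.33 ± 1.03, adjusted p = 0.296 at day 8 without the block and 2.41 and an adjusted p of 0.0203 with slides blocked, with the opposite sign. Rmrp (NR_001460, chromosome 4), the RNA of RNase MRP, was at -0.28 ± 0.17, adjusted p = 0.21 at day 5 and -0.17 ± 0.17, adjusted p = 0.413 at day 8, with overlapping arrays. Rpph1 (NR_002142, chromosome 14), the RNA of RNase P, was at 0.02 ± 0.22, adjusted p = 0.938 at day 8.

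Of 44 tested probes whose accession was not matched, 7 rose and 20 fell at day 8 (61.4%, beside 54.8% of all tested probes). With slides blocked 2 were called there, both falls. NR_001592 had 4419, 7089 and 6069% in proliferating cells, 9074, 10072 and 3762% at day 2, 27962, 38704 and 34826% at day 5, and 20129, 13841 and 20260.1% at day 8. Day 5 was the highest stage, and days 5 and 8 did not overlap proliferation. It rose by 2.54 ± 0.35, adjusted p = 0.00013 at day 5 (3.08 and an adjusted p of 0.00989 with slides blocked) and 1.63 ± 0.35, adjusted p = 0.00231 at day 8, and the day 8 call ended with slides blocked, with adjusted p between 0.000136 and 0.12 in its 18 alternatives. Within the slide shared by days 2 and 5, day 5 was higher by 2.42. NR_027640 rose by 1.89 ± 0.28, adjusted p = 0.000221 at day 5 (2.57 and an adjusted p of 0.00169 with slides blocked), with 163, 109 and 188% at day 5 against 44.4, 37.2 and 40.2% in proliferating cells. NR_024069 was higher at day 5 than at day 2 (1.39 ± 0.31, adjusted p = 0.00605, 1.42 and an adjusted p of 0.0135 with slides blocked).

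NR_003957 had 4.77, 8.27 and 7.21% in proliferating cells, 2.5, 2.78 and 3.34% at day 2, 0.547, 0.812 and 0.674% at day 5, and 0.807, 0.726 and 0.95% at day 8. The log2 fold change was -3.30 ± 0.23, adjusted p = 7.87e-07 at day 5 (-3.59 and an adjusted p of 0.00061 with slides blocked) and -3.0 ± 0.23, adjusted p = 1.22e-06 at day 8 (-3.30 and an adjusted p of 0.0042 with slides blocked), with no alternative ending these calls. NR_003618 had 103, 136 and 112% in proliferating cells, 116, 48.4 and 39.2% at day 2, 21.6, 18.4 and 13.4% at day 5, and 15.2, 15.3 and 17% at day 8, with day 2 array 1 at the level of the proliferation arrays on its slide. It was at -2.74 ± 0.34, adjusted p = 6.99e-05 at day 5 (-1.13 and an adjusted p of 0.0232 with slides blocked). NR_026574 changed late, with 78.1, 60.1 and 70.5% at day 8 against 161, 219.7 and 173% at day 5 (-1.40 ± 0.20, adjusted p = 0.00274), and the call ended with slides blocked and with non-uniform spots dropped, with adjusted p between 0.00154 and 0.0911 in its 20 alternatives. NR_003546 was at least 4.32-fold lower at day 8 (adjusted p = 0.000358), and that call ended with slides blocked and with normexp background correction, with adjusted p between 8.26e-06 and 0.539 in its 20 alternatives. Its day 5 value was -2.02 ± 0.54, adjusted p = 0.00954 and had the opposite sign with the slide as a block (0.41).

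3 more of these records were dim and unstable. NR_003959 was at least 2.65-fold lower at day 8 than at day 5 (adjusted p = 0.043), a call that ended with slides blocked, with normexp background correction, with dim probes kept in, with non-uniform spots dropped and with non-uniform spots dropped after scaling, and when proliferation arrays 1, 2 or 3, day 2 array 1, day 5 arrays 1 or 2 or day 8 arrays 2 or 3 was left out (0.0536 to 0.142), with adjusted p between 0.0116 and 0.553 in its 20 alternatives. NR_027323 was at least 1.30-fold lower at day 8 than in proliferating cells (adjusted p = 0.0494), which ended with the replicate block, with slides blocked, with normexp background correction, with quantile normalization, with dim probes kept in, with non-uniform spots dropped and with non-uniform spots dropped after scaling, and when proliferation array 3, day 2 arrays 1, 2 or 3, day 5 array 2 or day 8 arrays 1, 2 or 3 was left out (0.0602 to 0.187), with adjusted p between 0.025 and 0.86 in its 20 alternatives. NR_003629 was well above background on 3 of 3 arrays at day 8 and on none at day 5, at least 2.61-fold higher, but the adjusted p of 0.139 missed the threshold.

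The members whose 12 array values were most like those of Snhg1 were Suv39h2 (Pearson r = 0.909), Sprr2g (0.903), Gm5424 (0.885), Gm5643 (0.881) and NR_027627 (0.868). These are descriptions over arrays that share stages and slides. Gm5424, Gm5643 and NR_027627 were at -2.05, -1.14 and -1.67 at day 5 against proliferation.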

How the data were processed

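RNA of C2C12 cells was measured on 12 Agilent 1-colour arrays. The deposited values are spot intensities as Agilent Feature Extraction 10.5.1.1 wrote them, per the file headers and the submitters' processing notes. The processed intensity deposited by the authors had its background already subtracted. For each array log2 of the processed signal minus its 75th percentile was taken, after averaging the spots of a probe without population outliers. Non-uniform spots were kept. A probe was tested where it was well above background on 3 of 3 arrays of at least 1 stage. limma 3.58.1 (R 4.3.3; lmFit and eBayes) was fitted to all 12 arrays and 22959 probes, with Benjamini-Hochberg adjustment over all of them and a threshold of 0.05. Standard errors are those of that fit. Classes and chromosomes came from the RefSeq gene table, which matched 244 of 307 probes. A partner or listed gene with several tested probes was represented by the brightest. Figures were drawn with Python 3.11.15 and matplotlib 3.10.9.

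Alternatives were the slide as a block, normexp (offset 50, on the median signal and background, since the mean signal was not used here), quantile scaling, the percentile over detected probes, no filter, non-uniform spots left out, the replicate number as a block, and leaving out each array. The members, lists and tests were chosen with earlier results of these data known. Named were the tested snoRNA hosts, listed RNAs and antisense RNAs, the members with the largest range between stages in each class, the 3 largest called rises and falls of each comparison, and members that crossed the background; others are marked as chosen after their values were seen. Same-numbered arrays of different stages correlated at -0.155 to 0.243 over 18 pairs, 5 of them over 0.1, so the numbers were not taken as pairing. On simulated data of day 8 against proliferation, with 200 changed probes among 22959, 52% of probes changed by 1 and 86% of those changed by 2 on the log2 scale were recovered, with 4.83% of calls false. In the real comparison 54.8% of tested probes were called. The simulated shares therefore hold for a setting with far fewer changes and do not measure recovery or false calls in these data. The number of arrays limits the precision.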

Additional observations from a re-analysis of the deposited data

How the results depend on the processing

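With the slide as a block 44 members were called across the stages, 18 at day 2, 30 at day 5 and 21 at day 8 against proliferation, and 3 for day 8 against day 5, against 111, 45, 78, 92 and 16 without it. For day 5 against day 2 the block gave 37 calls, of which 36 were among the 51 without it. Of all tested probes 31.4% were called with the block across the stages, against 65.8% without it. At days 2, 5 and 8 the shares with the block were 15.3, 22.7 and 17.3%, against 30.6, 47.5 and 54.8%. For day 5 against day 2 they were 22.1 against 30.1%, and for day 8 against day 5 3.24 against 12.6%. Leaving out non-uniform spots, which left 103 members to test, gave 44 across the stages, 26 (24 rises and 2 falls), 36 (30 and 6) and 24 (15 and 9) at days 2, 5 and 8, 11 for day 5 against day 2 and 3 for day 8 against day 5. That setting moved the median of all probes to 0.74, 0.81 and 0.51 at days 2, 5 and 8, against 0.07, -0.02 and -0.11. Keeping the percentile of all spots, an alternative added after seeing the data, gave 49, 23, 31, 41, 18 and 5 in the same order of comparisons. With no filter the counts were 99, 30, 70, 90, 41 and 11. Normexp moved the median of all probes to 0.20, 0.13 and 0.15. Leaving out each array in turn gave 94 to 122 across the stages, 31 to 46 at day 2, 67 to 77 at day 5, 77 to 107 at day 8, 38 to 54 for day 5 against day 2 and 9 to 25 for day 8 against day 5, where day 5 array 1 or day 8 array 3 left 9, day 8 array 1 left 10 and day 5 array 3 left 25. With the replicate block the counts were 103, 42, 80, 91, 49 and 13.

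Some called members turned sign. With the slide as a block these were 1700049L16Rik (0.19), 1700018B24Rik (0.35) and NR_027323 (0.49) at day 8 and NR_003546 (0.41) and Apoo-ps (0.0454) at day 5. With normexp they were BC018473 (0.0471), Sprr2g (0.0765), 1700123L14Rik (0.22), 1700018B24Rik (0.22) and NR_027323 (0.24) at day 8 and Adarb1 (-0.0502 at day 2, -0.000832 at day 5). Without non-uniform spots they were Gnasas1 (0.0747) and Dlx1as (0.21) at day 5. Among values of named members over all alternatives, 6179 kept their direction and side of the threshold, 419 lost the threshold, 88 gained it and 14 turned sign. The slide block ended 88 of these calls and normexp 48. The cause was not tested. Dim members, near background, are the least certain of direction.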
